A study of Mus musculus with 26 samples.

Results

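The antioxidant and glutathione genes described here are 39 genes chosen by name from the 45318 genes of the RNA-seq count files: the transcription factor NRF2 and its targets, the enzymes of glutathione, thioredoxin and the pentose phosphate pathway, and the genes of iron and metal storage. RNA was sequenced from 4T1 cells, a mammary carcinoma line of BALB/c mice, to compare cells with and without the long noncoding RNA MaTAR25. The 2 control libraries, of wild type genotype, are from 4T1 cells that received an sgRNA against Renilla luciferase. The 3 KO1 and 4 KO2 libraries, of genotype MaTAR25-/-, are from cells in which a pair of sgRNAs and Cas9 removed the start site of MaTAR25. All were grown from single sorted cells in DMEM with serum, so KO1 and KO2 are each 1 clone, and the controls are of 1 or more clones. What is particular to a KO or control clone cannot be told apart from the loss of MaTAR25. The labels do not say whether libraries of a group are separate cultures, so p-values measure the spread between these libraries, which may be technical.

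NRF2, made by the Nfe2l2 gene, is a transcription factor that KEAP1 holds back and sends to the proteasome. When oxidants or electrophiles modify KEAP1, NRF2 builds up, enters the nucleus and binds antioxidant response elements beside small MAF proteins. Its targets make glutathione and thioredoxin, keep both reduced with NADPH, conjugate electrophiles, and store iron, while metallothioneins hold zinc and copper and are driven by the factor MTF1 through metal response elements.

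MaTAR25 had 35 and 30 counts in the controls, 2, 7 and 0 in KO1 and 11, 1, 9 and 6 in KO2, so no knockout library reached the lower control, and the log2 fold change was -2.63 ± 0.82 (adjusted p = 0.0561). Counts assigned to genes were 25367211 to 61110585 in a library, with a median of 38555701. Libraries labelled as 1 group correlated on the log2 scale at 0.960 to 0.996. Within KO2 the range was 0.960 to 0.979, which overlaps that of libraries of different groups, 0.945 to 0.972. KO2 replicate 2, the shallowest library, stood apart from the other KO2 libraries for several members, as given below beside each. Epithelial markers such as Epcam and Krt18 summed to 2813 and 2971 CPM (gene counts scaled to 1000000 in a library, after TMM normalization) in the controls, 2339 to 3844 CPM in KO1 and 1411 to 2865 CPM in KO2. Within that list Cdh1, E-cadherin, was called lower over both clones (-0.65 ± 0.21, adjusted p = 0.0684) and Krt8 higher in KO1 (1.32 ± 0.34, adjusted p = 0.0232). Fibroblast, haematopoietic and endothelial markers summed to at most 47.6, 9.72 and 1.68 CPM in any library.

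Of the 38 members tested, 18 rose in the knockout clones (11.9% of all genes tested did), while Nfe2l2, the gene of the factor known to drive many of them, fell. The members and gene lists were chosen with earlier results of these data known. Shares set beside those of all genes are therefore a description and not a test of an excess. With the 7 KO libraries set against the 2 controls, 21 members passed the threshold of an adjusted p under 0.1 (edgeR quasi-likelihood test, Benjamini-Hochberg adjusted over all genes), where 22.6% of the 15023 genes tested did. Of these, 18 rose and 3 fell (Nfe2l2, Mt1 and Mt2), a direction taken by 10.7% of all genes. The median log2 fold change of the members was 0.77, against 0.06 over all genes. All KO libraries lay on 1 side of both controls for 24 members, a pattern seen in 34.4% of all genes. Only Gpx2 was not tested, since it was at 0 in both controls and at most 0.113 CPM elsewhere. Summed over the 39 members, the level was 4721 and 5195 CPM in the controls, 6109 to 8305 CPM in KO1 and 7740 to 11743 CPM in KO2, and in a bulk library more RNA per cell and more cells with the RNA cannot be told apart. The counts rest on both controls. Most calls were lost without control replicate 1 or control replicate 2, whereas 16 to 23 members were called without any 1 KO library. The sign of all 21 called members was kept in each of the 15 alternative settings. How many of all genes were called in these settings was not counted, so the losses are not shown to be particular to the members. Of the 21 calls, 18 were lost without either control, and 2, Nfe2l2 and Prdx6, were lost without control replicate 2 only.

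**Figure D1:**
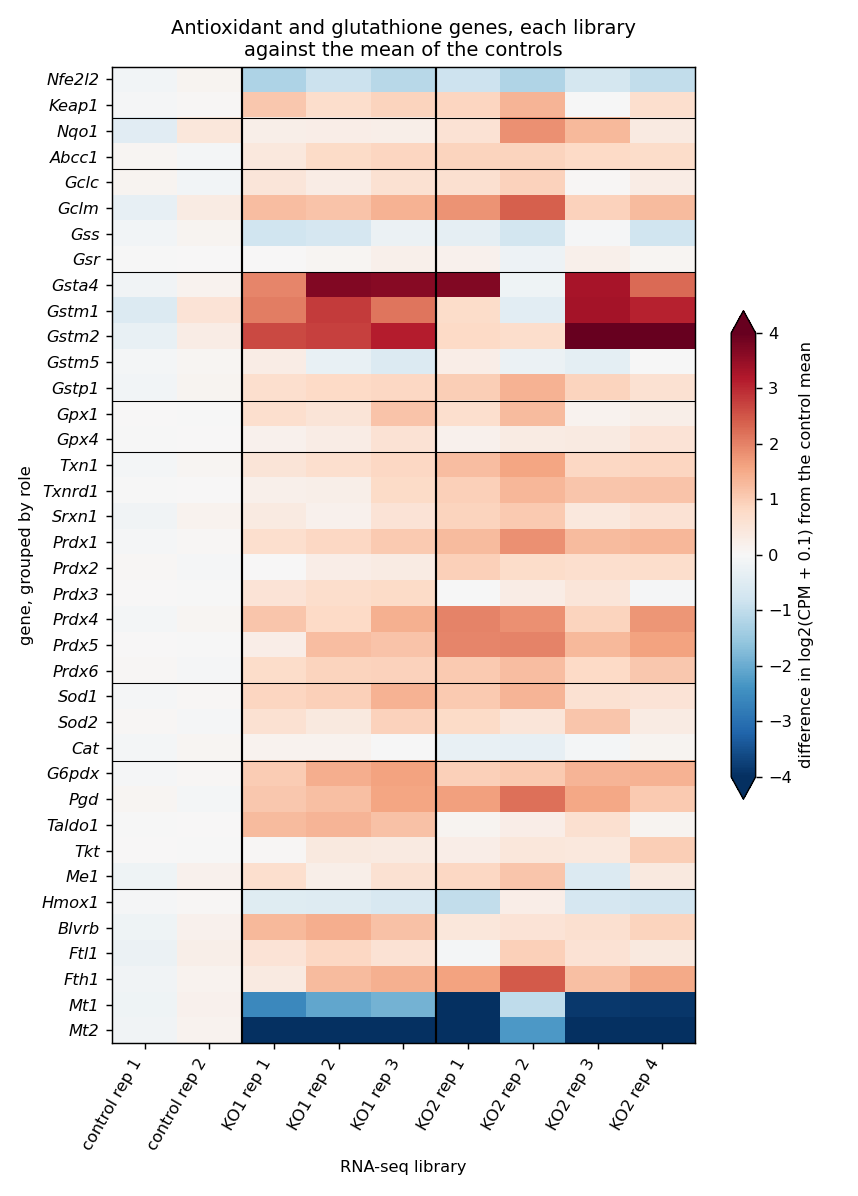
Difference in log2(CPM + 0.1) between each library (columns) and the mean of the controls, for the 38 members tested (rows, grouped by role). Red rows of Prdx1, Prdx4, Prdx5, Prdx6, Pgd and G6pdx run through both clones, and Nfe2l2, Mt1 and Mt2 are blue in all 7 KO libraries. KO2 rep 2 departs from its clone at Gsta4, Mt1 and Mt2 (colours end at a difference of 4 in either direction).

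Each clone was also set against the same 2 controls in a fit with 3 groups. In KO1, 21 members passed, 19 higher and 2 lower, where 31.6% of all genes did (15.9% higher and 15.7% lower). In KO2, 24 members passed, 21 higher and 3 lower, where 31.4% of all genes did (16.5% higher and 15.0% lower). The medians were 0.68 in KO1 and 0.76 in KO2, against 0.02 and 0.03 over all genes. The KO1 libraries lay apart from the controls for 34 members and the KO2 libraries for 25, with shares over all genes of 66.9% and 46.9%. By the test in each clone, 17 members were higher in both and Nfe2l2 and Mt2 were lower in both. The share of all genes called in both clones was not counted. Both tests use the same 2 controls, so their calls are not independent. Prdx3 and Taldo1 passed in KO1 alone, Mt1, Prdx2, Srxn1, Tkt and Txnrd1 passed in KO2 alone, and 12 passed in neither, although passing in 1 clone is not by itself a difference between them. The number called in KO1 was 6 without control replicate 1, 5 without control replicate 2 and 13 without KO1 replicate 3, and that in KO2 was 11 and 14 without the controls in turn.

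**Figure D2:**
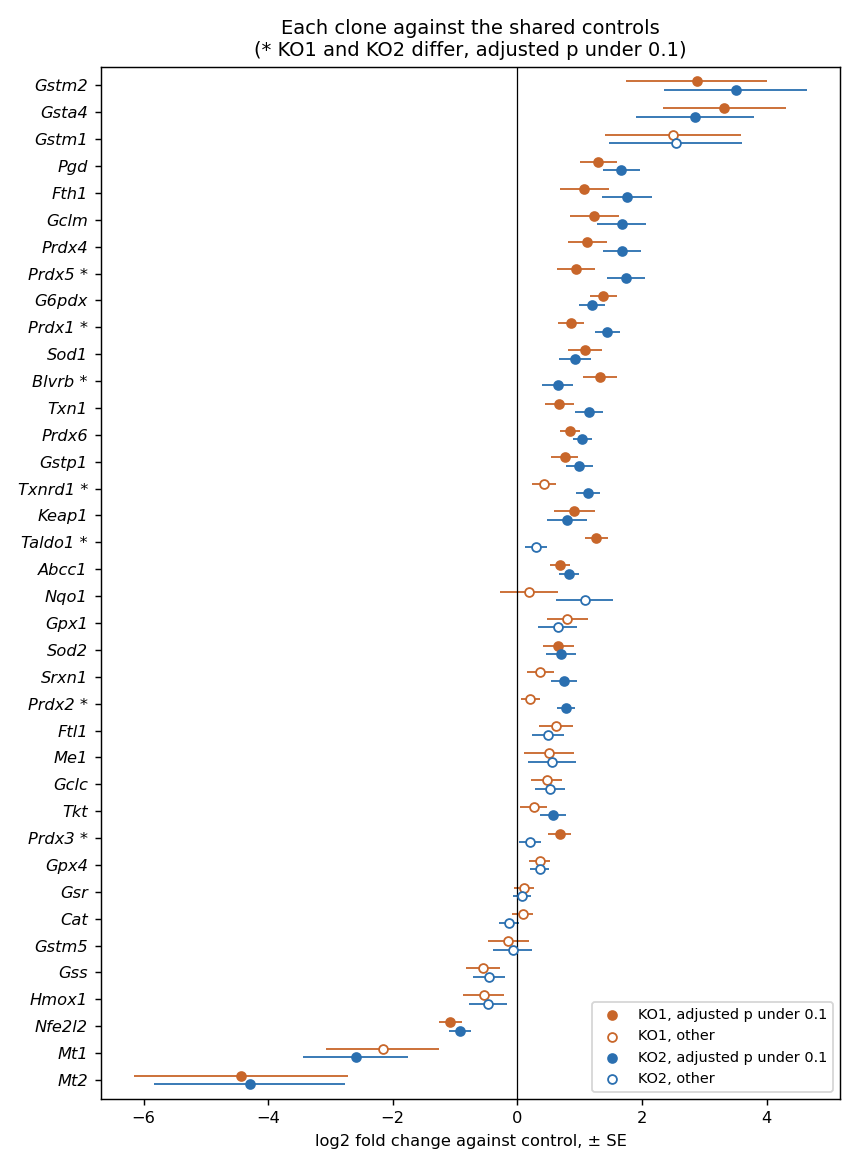
Log2 fold change (± SE) of each member in KO1 (orange) and KO2 (blue) against the same 2 controls, with filled points where the adjusted p is under 0.1. Stars mark the 7 members for which the clones themselves differ, and Gstm2, at the top, and Mt2, at the bottom, have the widest errors.

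Nfe2l2 (chr2:75675513-75704641, GRCm38, minus strand) encodes NRF2. Its level was 126 and 148 CPM in the controls, 57.5, 74.8 and 62.6 CPM in KO1 and 77.6, 59.8, 83.7 and 69.3 CPM in KO2. All KO libraries lay below both controls, and the clones overlapped each other. The log2 fold change was -0.98 ± 0.17 (SE) over both clones (adjusted p = 0.00524). Against the same controls, KO1 had -1.08 ± 0.19 (adjusted p = 0.00468) and KO2 had -0.92 ± 0.17 (adjusted p = 0.00703). Without control replicate 2 it was -0.86 and missed the threshold (adjusted p = 0.108). Keap1 (chr9:21229730-21239361, minus strand), which encodes the NRF2 sensor, moved the other way. It was at 45.4 and 49.0 CPM in the controls, 101, 77.6 and 88.3 CPM in KO1 and 85.7, 121, 46.2 and 75.2 CPM in KO2, where KO2 replicate 3 alone lay between the controls. Keap1 rose by 0.85 ± 0.30 on the log2 scale (adjusted p = 0.0847), and this call was lost in 8 of the 15 alternative settings, among them without control replicate 1 (0.81) and without control replicate 2 (0.91). Part of its exons, 510 bases, lie under the antisense gene Gm16754. With no strand setting given for the counting, reads there may have been left out as ambiguous, or counts of Keap1 may hold reads of Gm16754.

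Promoter windows of RefSeq, running from 250 bases before to 50 bases after an annotated start (GRCm38.p6), were found for 33 of the 39 members, in 43 windows. The antioxidant response element core searched was TGACNNNGC on both strands, with N any base. It was found in 11 of 43 member windows (25.6%) and in 12.4% of the 32851 windows of the table. The 11 genes are G6pdx, Gclm, Gstm5, Me1, Mt2, Nfe2l2, Pgd, Prdx1, Sod1, Srxn1 and Txnrd1, of which the Nfe2l2 match began 240 bases before its start. AP-1 sites (TGANTCA) were in 6 windows (14.0%, against 7.81% of all), and in Me1, Mt2 and Prdx1 an AP-1 site and an antioxidant response element core share bases. Such a match is a description of the letters and not evidence of binding. Shown next, because each carries a core and its gene is described later, are the stretches of 280 bases that end 30 bases after the start, 5′ to 3′ on the strand of the gene, with the core in capitals: G6pdx (chrX:74428851-74429130, minus strand), Gclm (chr3:122245307-122245586, plus strand), Prdx1 (chr4:116685349-116685628, plus strand) and Txnrd1 (chr10:82858956-82859235, plus strand).
G6pdx: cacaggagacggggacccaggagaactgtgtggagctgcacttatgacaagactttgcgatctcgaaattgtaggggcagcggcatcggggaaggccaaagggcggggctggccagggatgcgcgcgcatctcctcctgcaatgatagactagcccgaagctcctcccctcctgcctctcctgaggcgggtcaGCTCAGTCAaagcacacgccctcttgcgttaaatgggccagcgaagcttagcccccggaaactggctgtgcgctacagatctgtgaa
Gclm: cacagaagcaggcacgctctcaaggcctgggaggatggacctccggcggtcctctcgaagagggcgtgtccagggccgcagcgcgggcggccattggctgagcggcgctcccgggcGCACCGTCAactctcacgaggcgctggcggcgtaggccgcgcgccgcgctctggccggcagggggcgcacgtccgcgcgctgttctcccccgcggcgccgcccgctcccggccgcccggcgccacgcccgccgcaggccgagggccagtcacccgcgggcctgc
Prdx1: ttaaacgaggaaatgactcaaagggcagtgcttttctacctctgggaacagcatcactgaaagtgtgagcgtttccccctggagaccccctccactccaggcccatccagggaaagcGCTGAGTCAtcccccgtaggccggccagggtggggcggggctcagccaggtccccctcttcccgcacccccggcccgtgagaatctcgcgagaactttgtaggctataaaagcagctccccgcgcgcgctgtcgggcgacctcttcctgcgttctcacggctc
Txnrd1: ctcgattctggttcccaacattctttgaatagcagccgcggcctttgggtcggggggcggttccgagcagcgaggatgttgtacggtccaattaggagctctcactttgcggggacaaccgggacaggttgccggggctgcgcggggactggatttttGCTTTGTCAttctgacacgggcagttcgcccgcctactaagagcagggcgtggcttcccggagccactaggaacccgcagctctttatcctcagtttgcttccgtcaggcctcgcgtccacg

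The metallothioneins, small proteins that bind zinc and copper, had the largest falls among the members. Mt2 was the member with the highest level per length in the controls, 451 ± 61.8 CPM per kilobase of exon (SD, n = 2). The length is that of the merged exons of all annotated transcripts, and in CPM alone Fth1 and Ftl1 were above Mt2 in both controls. By level per length, Mt2 ranked 23 or 24 of 39 in each KO1 library, and in KO2 it ranked 37, 10, 38 and 38 in replicates 1 to 4. Its level was 239 and 291 CPM in the controls, 12.0, 12.8 and 11.9 CPM in KO1, and 0.697, 53.1, 0.791 and 0.388 CPM in KO2. All KO libraries were below both controls. The 3 KO1 values lay close together, whereas KO2 replicate 2 was above KO1 and the other KO2 libraries were below it. Mt2 fell by 4.35 ± 1.25 on the log2 scale (adjusted p = 0.0416). The values by clone were -4.44 ± 1.71 for KO1 (adjusted p = 0.0908) and -4.30 ± 1.53 for KO2 (adjusted p = 0.0711). Without KO2 replicate 2 the log2 fold change over both clones was -5.38 (adjusted p = 0.0131), and without control replicate 1 or 2 it was -4.47 and -4.20, with the call lost in both cases. Of the 588 exon bases of Mt2, 432 lie under the antisense gene Gm45774, so its counts may hold reads of that gene or lack reads left out as ambiguous.

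Mt1, the neighbour of Mt2 on chromosome 8, was at 180.1 and 229 CPM in the controls, 34.2, 47.8 and 55.1 CPM in KO1 and 7.16, 101, 13.9 and 13.6 CPM in KO2. Again KO2 replicate 2 was the highest KO library and no KO library reached the controls. The log2 fold change was -2.39 ± 0.72 over both clones (adjusted p = 0.0497), where KO1 alone had -2.16 ± 0.91 (adjusted p = 0.116) and KO2 alone -2.60 ± 0.84 (adjusted p = 0.0519). Without KO2 replicate 2 it was -2.85 (adjusted p = 0.0159). Leaving out control replicate 1 or 2 gave -2.55 and -2.20 and ended the call. The clones were not shown to differ for either gene, with differences (KO1 minus KO2) of 0.43 ± 0.77 for Mt1 and -0.14 ± 1.37 for Mt2.

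Metal response element cores, searched as TGCACNC and TGCGCNC on both strands, were in 10 of 43 member windows (23.3%) and in 25.7% of all windows. The windows of Gstm1 overlap and hold the same match, which is counted in each. At least 3 matches were found in 3 member windows (6.98%), those of Mt1, Mt2 and Gclm, and in 1.97% of all windows. Mt1 (chr8:94178839-94179118, plus strand) and Mt2 (chr8:94172368-94172647, plus strand) are shown, since their fall is the largest among the members, with the metal response element cores in capitals. Mt2 also holds an antioxidant response element core and an AP-1 site, both beginning 79 bases before the start, which are not in capitals here.
Mt1: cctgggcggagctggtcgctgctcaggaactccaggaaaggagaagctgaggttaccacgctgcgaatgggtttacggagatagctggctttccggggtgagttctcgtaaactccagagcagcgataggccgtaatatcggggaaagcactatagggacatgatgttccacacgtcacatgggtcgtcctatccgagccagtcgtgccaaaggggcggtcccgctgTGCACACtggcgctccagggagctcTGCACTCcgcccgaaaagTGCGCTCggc
Mt2: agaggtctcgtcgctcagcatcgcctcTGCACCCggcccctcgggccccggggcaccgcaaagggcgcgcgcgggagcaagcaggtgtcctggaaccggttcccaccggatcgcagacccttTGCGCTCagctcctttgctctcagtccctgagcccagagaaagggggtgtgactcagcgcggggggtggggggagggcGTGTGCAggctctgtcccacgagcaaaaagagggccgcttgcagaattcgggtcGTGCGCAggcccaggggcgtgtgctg

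**Figure D3:**
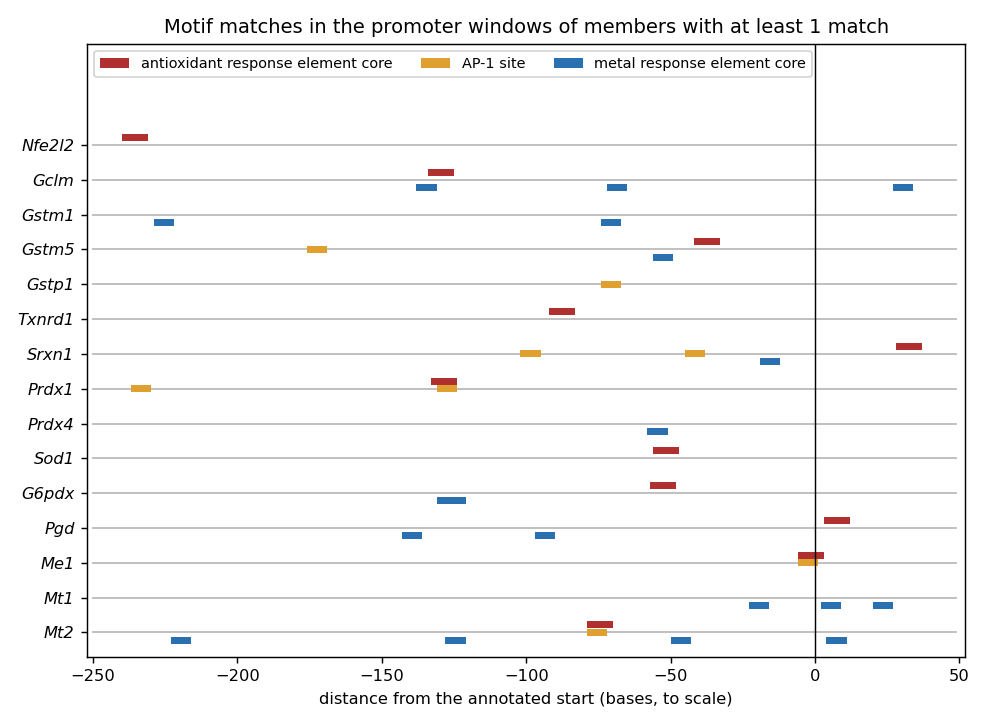
Position of each match in the promoter windows (grey lines, 250 bases before to 49 bases past the start, to scale) of the 15 members with at least 1 match, coloured by motif. The 2 windows of Gstm1 overlap and are drawn on 1 line, so the same match appears at 2 positions. Mt1 and Mt2 have 3 and 4 metal response element cores.

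Of the other 4 members of haem, iron and metal, 2 rose, where 11.9% of all genes tested did, and none of the others passed the test. Fth1 and Ftl1 encode the heavy and light chains of ferritin, the store of cellular iron. Fth1 was at 637 and 766 CPM in the controls, 892, 1683 and 1862 CPM in KO1 and 2113, 3805, 1595 and 1997 CPM in KO2, above the controls in all 7 libraries and highest in KO2 replicate 2. It rose by 1.51 ± 0.44 on the log2 scale (adjusted p = 0.0451), and by 1.26 (adjusted p = 0.0216) without KO2 replicate 2. The values without control replicate 1 or 2 were 1.39 and 1.65, neither called. Ftl1 was at 373 and 511 CPM in the controls and at 414 to 835 CPM in the KO libraries, with 1 KO2 library between the controls, and its change of 0.55 ± 0.24 missed the threshold (adjusted p = 0.155). Of the stretches of 50 bases in the Ftl1 exons, 48.0% occur again elsewhere on the chromosomes, against 1.84% for Fth1. Alignments that were not unique were assigned to no gene, so part of the Ftl1 reads may not have been counted.

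Hmox1, which opens haem, was at 49.4 and 53.6 CPM in the controls and at 25.7 to 36.9 CPM in 6 of the 7 KO libraries. The seventh, KO2 replicate 2, was at 61.5 CPM. Its log2 fold change was -0.50 ± 0.28 (adjusted p = 0.249) with that library and -0.68 (adjusted p = 0.0234) without it. Blvrb, biliverdin reductase B, was at 4.08 and 5.09 CPM in the controls, 11.4, 12.7 and 10.3 CPM in KO1 and 6.24, 6.78, 7.19 and 8.46 CPM in KO2, so the 3 groups did not overlap. Blvrb rose by 0.98 ± 0.35 (adjusted p = 0.0882), a call lost without control replicate 1 (0.84) or 2 (1.15).

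Within glutathione synthesis, 1 of the 4 enzymes passed the test, where 22.6% of all genes tested did. Gclm, the modifier subunit of glutamate-cysteine ligase, the first enzyme of the pathway, was at 24.6 and 38.0 CPM in the controls, 72.5, 68.1 and 80.5 CPM in KO1 and 107, 161, 58.4 and 73.2 CPM in KO2. No KO library overlapped the controls. Gclm rose by 1.50 ± 0.40 on the log2 scale (adjusted p = 0.0305), by 1.24 ± 0.40 in KO1 and by 1.68 ± 0.39 in KO2. Without control replicate 1 the value was 1.24 and without control replicate 2 it was 1.85, and neither passed. Gclc, the catalytic subunit of the same ligase, was at 39.7 and 34.8 CPM in the controls and at 38.6 to 70.8 CPM in the KO libraries, with 0.50 ± 0.22 (adjusted p = 0.158). Gss, glutathione synthetase, had -0.49 ± 0.24 (adjusted p = 0.187), and Gsr, which reduces oxidised glutathione, had 0.09 ± 0.14 (adjusted p = 0.713), with 228 and 229 CPM in the controls and 198 to 266 CPM in the KO libraries. The antisense genes of Gss cover 1102 of its exon bases.

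Glutathione transferases join glutathione to electrophiles, and 3 of the 5 members rose, where 11.9% of all genes tested did. Gsta4, known for its activity on the lipid peroxidation product hydroxynonenal, was at 3.40 and 4.12 CPM in the controls, 14.7, 49.7 and 48.2 CPM in KO1 and 49.5, 3.28, 37.3 and 18.5 CPM in KO2. KO2 replicate 2 lay below both controls and the other 6 KO libraries above them. Gsta4 rose by 3.07 ± 0.93 on the log2 scale (adjusted p = 0.0515), and the value was 3.27 without KO2 replicate 2 (adjusted p = 0.00749) and 2.95 and 3.22 without the controls in turn, where it was not called.

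Gstm2 was at 1.56 and 2.44 CPM in the controls, 12.7, 13.5 and 17.9 CPM in KO1 and 3.46, 3.24, 46.1 and 37.4 CPM in KO2. The KO2 libraries thus fell into a low and a high pair on either side of KO1. Gstm2 rose by 3.27 ± 1.10 (adjusted p = 0.0749), with 2.99 and 3.63 without control replicate 1 or 2, neither called. Gstm1 showed the same split, 0.781 and 0.295 CPM in KO2 replicates 1 and 2 and 5.27 and 4.37 CPM in replicates 3 and 4, against 0.263 and 0.671 CPM in the controls and 2.10 to 3.55 CPM in KO1. Its change of 2.52 ± 1.02 missed the threshold (adjusted p = 0.125) and was 2.71 (adjusted p = 0.0443) without KO2 replicate 2. These genes share 20.7% (Gstm2) and 24.4% (Gstm1) of their exon stretches of 50 bases with other places on the chromosomes, so part of their reads may not have been counted. Gstp1 rose by 0.90 ± 0.22 (adjusted p = 0.0219), from 45.3 and 53.0 CPM to 75.2 to 129 CPM, with 45.3% of its stretches repeated, and lost its call without control replicate 1 (0.80) or 2 (1.02). Gstm5, another mu class transferase, had -0.10 ± 0.30 and 4.79 to 8.74 CPM over all 9 libraries.

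Of the glutathione peroxidases, Gpx1, which reduces hydrogen peroxide, was at 116 and 115 CPM in the controls and 126 to 277 CPM in the KO libraries, and Gpx4, which reduces lipid hydroperoxides, at 178 and 185 CPM and 204 to 270.0 CPM. All KO libraries were above both controls for these genes, yet neither change passed, with 0.72 ± 0.30 (adjusted p = 0.135) for Gpx1 and 0.36 ± 0.15 (adjusted p = 0.138) for Gpx4. Of the Gpx4 stretches, 33.4% are repeated elsewhere.

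**Figure D4:**
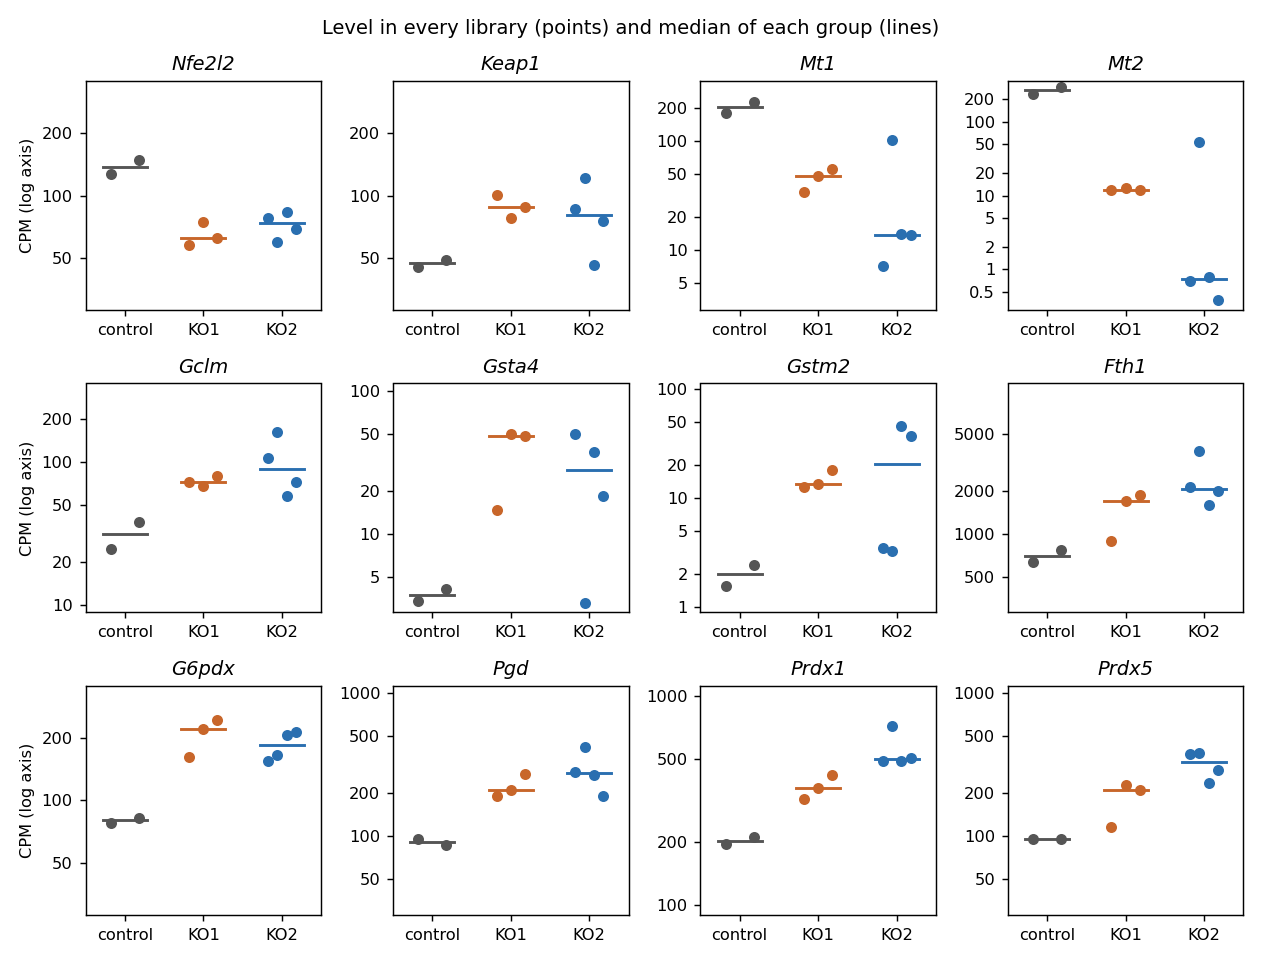
CPM (log axes) of 12 members in every library, with a point for each library and a line at the median of each group. The KO points of Nfe2l2, Mt1 and Mt2 all lie below the controls, and a single KO2 point, replicate 2, stands far above the other KO2 points of Mt1 and Mt2 and below them for Gsta4.

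The thioredoxin system and the peroxiredoxins, which pass electrons from NADPH to peroxides, held 6 of the called members among 9. All 6 were higher, a direction taken by 11.9% of all genes tested. Prdx1, a cytosolic peroxiredoxin, was at 195 and 211 CPM in the controls, 320.3, 363 and 417 CPM in KO1 and 487, 719, 492 and 507 CPM in KO2, with no overlap between any of the groups. It rose by 1.22 ± 0.28 on the log2 scale (adjusted p = 0.0181). Prdx4, the peroxiredoxin of the secretory pathway, was at 46.5 and 51.9 CPM in the controls, 106, 84.6 and 131 CPM in KO1 and 195, 176, 91.9 and 169 CPM in KO2. Its rise was 1.47 ± 0.35 (adjusted p = 0.0203), and the KO libraries were all above the controls. Prdx5, found in mitochondria, peroxisomes and cytosol, was at 96.1 and 95.8 CPM in the controls, 116, 228 and 211 CPM in KO1 and 373, 383, 235 and 292 CPM in KO2, again with no overlap, and rose by 1.45 ± 0.40 (adjusted p = 0.0358). Without control replicate 1 or 2 the values were 1.18 and 1.28 for Prdx1, 1.41 and 1.56 for Prdx4, and 1.47 and 1.45 for Prdx5, none called. Of the Prdx1 stretches of 50 bases, 23.6% are repeated elsewhere, and an antisense neighbour, Trmt112, covers 409 bases of the Prdx5 exons.

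Prdx6 rose by 0.96 ± 0.16 (adjusted p = 0.00523), from 159 and 148 CPM to 257 to 361 CPM, and Txn1, thioredoxin itself, by 0.97 ± 0.27 (adjusted p = 0.0366), from 234 and 261 CPM to 356 to 738 CPM. The call of Txn1 was lost without control replicate 1 (0.91) or 2 (1.05), and that of Prdx6 without control replicate 2 (0.92, adjusted p = 0.101). Txnrd1, which reduces thioredoxin, was at 272 and 280.4 CPM in the controls, 318, 325 and 469 CPM in KO1 and 533, 691, 591 and 605 CPM in KO2, with no overlap between the groups, and had 0.87 ± 0.30 over both clones (adjusted p = 0.0800), a call lost without control replicate 1 (0.86) or 2 (0.90). Srxn1, which restores overoxidised peroxiredoxins, Prdx2 and Prdx3 did not pass over both clones, with 0.60 ± 0.24, 0.56 ± 0.23 and 0.42 ± 0.23.

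Of the 7 members that differed between the clones, 5 belong to this system. Set against each other in the fit with 3 groups, where the controls enter the estimate of the spread but not the difference, KO1 and KO2 differed for 7 members, where 19.6% of all genes did. KO1 was higher for 3, a direction taken by 9.43% of all genes, and lower for 4, a direction taken by 10.2%. The libraries of the clones did not overlap for 9 members, a pattern in 24.5% of all genes, so neither share of the 38 members was above that of all genes. Txnrd1 was lower in KO1 by 0.71 ± 0.16 on the log2 scale (adjusted p = 0.0271), Prdx1 by 0.59 ± 0.17 (adjusted p = 0.0548) and Prdx5 by 0.79 ± 0.25 (adjusted p = 0.0694). Prdx2, at 226 and 209.8 CPM in the controls, 222, 262 and 272 CPM in KO1 and 418, 366, 351 and 357 CPM in KO2, was lower in KO1 by 0.57 ± 0.13 (adjusted p = 0.0233). The mitochondrial Prdx3 went the other way, with 84.5 and 81.9 CPM in the controls, 121, 135 and 143 CPM in KO1 and 82.4, 102, 116 and 80.9 CPM in KO2, and a difference of 0.48 ± 0.15 (adjusted p = 0.0736). Hence all KO2 libraries of Prdx2 lay above KO1 and the controls, while all KO1 libraries of Prdx3 lay above KO2 and the controls.

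Taldo1, transaldolase of the pentose phosphate pathway, had the largest of these differences. It was at 99.3 and 102 CPM in the controls, 239.7, 259.5 and 229 CPM in KO1 and 109, 121, 158 and 109 CPM in KO2. All KO1 libraries lay above KO2, and all KO2 libraries above the controls, with KO2 replicate 3 the highest of its clone. The log2 fold change against control was 1.27 ± 0.19 for KO1 (adjusted p = 0.00248) and 0.30 ± 0.17 for KO2 (adjusted p = 0.235), and the clones differed by 0.97 ± 0.15 (adjusted p = 0.00698). Blvrb, given above, was higher in KO1 by 0.68 ± 0.22 (adjusted p = 0.0723). The calls of Prdx3, Prdx5 and Blvrb between the clones were lost without control replicate 1 (adjusted p = 0.119, 0.111 and 0.114), without control replicate 2 (adjusted p = 0.120, 0.112 and 0.117) and with the replicate block (adjusted p = 0.140, 0.136 and 0.127). Those of Txnrd1 and Prdx1 were lost without KO1 replicate 1 (adjusted p = 0.101 and 0.178) or KO1 replicate 2 (adjusted p = 0.131 and 0.178), and those of Taldo1 and Prdx2 were kept in every setting run. The number of members that differed between the clones was 2 without KO1 replicate 1 or KO1 replicate 2, 4 without KO1 replicate 3, KO2 replicate 1 or either control, and 7 to 10 without another KO2 library.

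Both dehydrogenases of the pentose phosphate pathway, which make NADPH for glutathione and thioredoxin, were higher in each clone, while Pgls, the lactonase that acts between them, had 0.08 ± 0.15 over both clones (adjusted p = 0.742). G6pdx, glucose-6-phosphate dehydrogenase, was at 78.0 and 82.7 CPM in the controls, 162, 221 and 245 CPM in KO1 and 154, 165, 206 and 212 CPM in KO2, all KO libraries above both controls. Its rise of 1.28 ± 0.21 (adjusted p = 0.00478) was the 1 call among the 21 kept in all 15 alternative settings, between 1.12 and 1.33. Pgd, 6-phosphogluconate dehydrogenase, was at 95.4 and 86.8 CPM in the controls, 192, 211 and 271 CPM in KO1 and 282, 419.6, 269 and 190.0 CPM in KO2. It rose by 1.52 ± 0.31 (adjusted p = 0.0111), with 1.61 and 1.46 without control replicate 1 or 2, neither called. Neither gene was shown to differ between the clones, at 0.18 ± 0.17 for G6pdx and -0.37 ± 0.24 for Pgd. Tkt, transketolase, and Me1, the cytosolic malic enzyme, had 0.45 ± 0.22 and 0.54 ± 0.35 over both clones and did not pass, while Tkt passed in KO2 (0.57 ± 0.21, adjusted p = 0.0813). Of the Me1 stretches, 30.5% are repeated, and Ikbkg, antisense to G6pdx, covers 418 bases of the G6pdx exons.

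Of the enzymes that remove superoxide and hydrogen peroxide, Sod1, the cytosolic dismutase, was at 125 and 136 CPM in the controls, 238, 253 and 344 CPM in KO1 and 267, 338, 198 and 191 CPM in KO2. Every KO library was above both controls, and Sod1 rose by 1.00 ± 0.25 (adjusted p = 0.0247), with 0.96 and 1.07 without control replicate 1 or 2, neither called. The mitochondrial Sod2 rose by 0.68 ± 0.22 (adjusted p = 0.0664), from 47.0 and 44.2 CPM to 57.7 to 97.6 CPM, a call lost without control replicate 1 (0.74) or 2 (0.65), and 49.7% of its stretches are repeated elsewhere. Cat, catalase, had -0.04 ± 0.17 (adjusted p = 0.906), with 76.3 and 84.9 CPM in the controls and 64.4 to 88.5 CPM in the KO libraries, and was the 1 member whose sign differed between the clones. Nqo1, a quinone reductase often used as a readout of NRF2, was at 2.85 and 5.40 CPM in the controls, 4.67 to 4.71 CPM in KO1 and 5.09 to 14.1 CPM in KO2, and its change of 0.76 ± 0.52 did not pass (adjusted p = 0.348). Abcc1, a pump that exports glutathione conjugates, rose by 0.77 ± 0.16 (adjusted p = 0.0119), from 124 and 112 CPM to 156 to 218 CPM, with 0.86 and 0.70 and no call without control replicate 1 or 2.

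The order of levels per length, which depends on the exon lengths used, also changed. In the controls Mt2 was followed by Ftl1 (330 ± 72.8 CPM per kilobase, SD, n = 2), Txn1 (236 ± 17.9) and Fth1 (202 ± 26.2), and the spreads of Mt2 and Ftl1, and those of Txn1 and Fth1, touched. KO1 was led by Ftl1 (509 ± 57.1, SD, n = 3), Fth1 (426 ± 149) and Txn1 (377 ± 38.9), and KO2 by Fth1 (685 ± 282, SD, n = 4), Txn1 (525 ± 133) and Ftl1 (463 ± 130), where the spreads of neighbours in each order overlapped. At the low end, Gstm1 had 0.317 CPM per kilobase in the controls, 1.79 in KO1 and 1.82 in KO2.

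**Figure D5:**
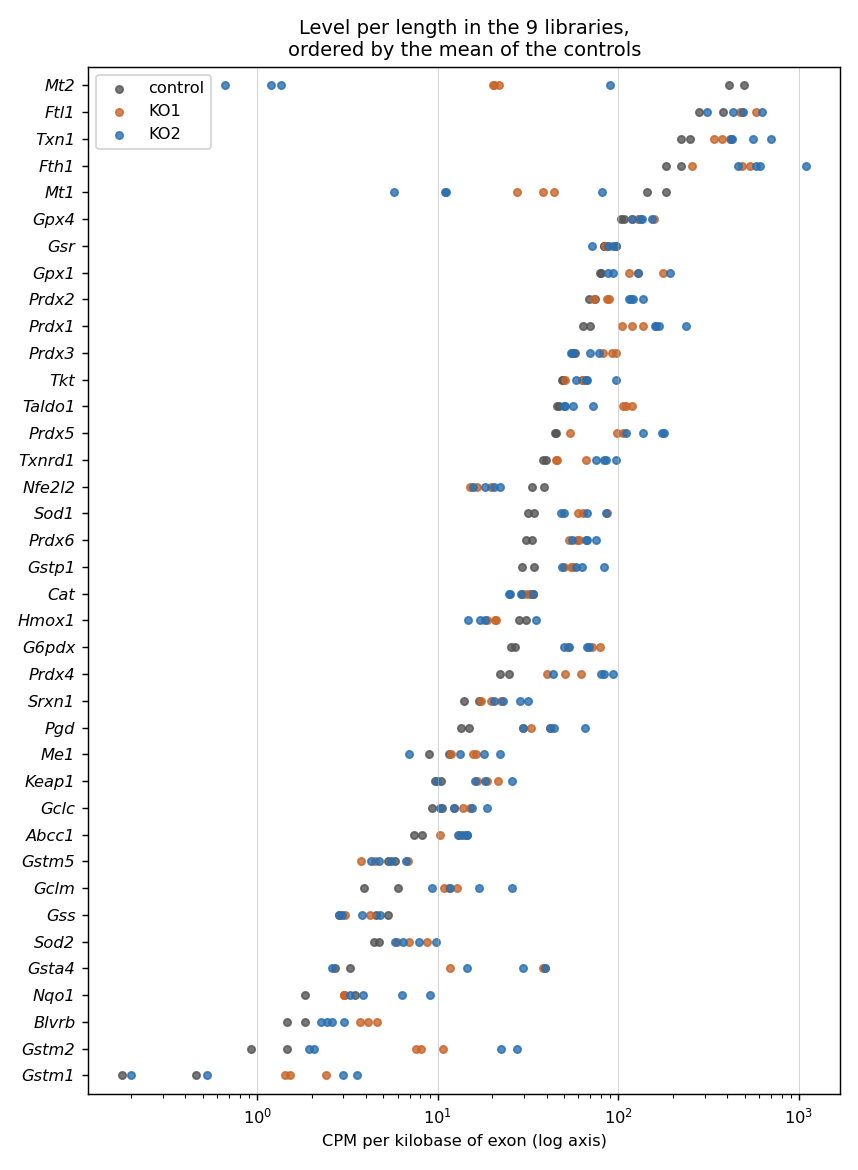
CPM per kilobase of exon (log axis) of 38 members in the 9 libraries, ordered by the control mean. Mt2 and Mt1 leave the top of the order in both clones, with KO2 points spread widely to the left, while the grey control points of Prdx1, Prdx4, Prdx5, Pgd and G6pdx lie to the left of all KO points.

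Among 105 other genes of the same pathways, 90 were tested and 29 passed over both clones, 18 higher (20.0%) and 11 lower (12.2%), where 11.9% and 10.7% of all genes tested did, with a median log2 fold change of 0.17. Slc7a11, the cystine carrier that feeds glutathione synthesis, was at 182 and 218 CPM in the controls, 43.1, 67.3 and 20.1 CPM in KO1 and 15.7, 9.60, 13.5 and 10.6 CPM in KO2, a log2 fold change of -2.96 ± 0.61 (adjusted p = 0.0121). Among the other NRF2 targets, 14 were tested, of which 2 rose and 2 fell, Slc7a11 among the latter. Akr1b3, aldose reductase, rose most of those that passed the test, by 1.74 ± 0.42 (adjusted p = 0.0206). Of the other regulators of NRF2, 1 of 11 rose and 3 fell, among them Bach2, a repressor that competes at the same elements (-3.21 ± 0.63, adjusted p = 0.0101), and Sqstm1, the p62 adaptor that binds KEAP1 (-1.51 ± 0.35, adjusted p = 0.0190). Slc7a11, Akr1b3 and Sqstm1 were not called without control replicate 1 (-3.07, 1.75 and -1.61) or 2 (-2.81, 1.75 and -1.37), nor Bach2 without control replicate 1 (-2.90).

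Glrx and Glrx5, which reduce glutathionylated proteins and help build iron-sulfur clusters, rose by 1.48 ± 0.37 and 1.17 ± 0.24 (adjusted p = 0.0235 and 0.0119). They were the 2 called of 13 other glutathione enzymes, where 22.6% of all genes tested were called. Of 11 other glutathione transferases tested, 4 passed the test, all higher, a direction taken by 11.9% of all genes tested. However, 2 of these 4, Gsta1 and Gstk1, were tested only because of their level in the KO libraries and could not have been called lower. Both had no count in either control and 0.295 to 4.27 CPM and 0.102 to 2.43 CPM in the KO libraries. Against a floor of 3 counts over both controls, their mean KO levels were at least 28.9-fold and at least 30.8-fold higher, for counting error only, and for Gsta1 the bound was 15.1-fold without KO2 replicate 1, the library at 4.27 CPM. Txnip, the inhibitor of thioredoxin, fell by 2.96 ± 0.45 (adjusted p = 0.00363) and Sesn2, a stress-induced sestrin, by 2.50 ± 0.57 (adjusted p = 0.0167), while Ccs, the copper chaperone of Sod1, was the 1 of these 14 thioredoxin and repair genes that rose and was named after its values were seen. Among 11 other NADPH and pentose phosphate enzymes 4 rose and 2 fell, where 11.9% and 10.7% of all genes tested did. These included the malic enzymes Me3 (-2.39 ± 0.69, adjusted p = 0.0423) and Me2 (1.32 ± 0.23, adjusted p = 0.00555). Without control replicate 1 or 2 the calls of Glrx (1.42 and 1.56), Glrx5 (1.21 and 1.15), Sesn2 (-2.59 and -2.39), Me3 (-1.86 and -2.76), Gsta1 and Gstk1 were lost, and that of Txnip was lost without control replicate 2 (-2.03).

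Of 16 other genes of haem, iron and metal tested, 4 rose and 2 fell, directions taken by 11.9% and 10.7% of all genes tested. Slc39a10, a zinc importer, was at 11.6 and 10.6 CPM in the controls, 53.0, 56.3 and 54.2 CPM in KO1 and 246, 60.8, 253 and 340.4 CPM in KO2, where replicate 2 was again the library apart, nearest to KO1. Its log2 fold change was 3.77 ± 1.00 (adjusted p = 0.0309). Slc40a1, ferroportin, which exports iron, fell by 2.54 ± 0.67 (adjusted p = 0.0298), from 17.5 and 18.0 CPM to 0.463 to 6.08 CPM. Both calls were lost without control replicate 1 (3.85 and -2.54) or 2 (3.72 and -2.51). Tfrc, the transferrin receptor that brings iron in, rose by 2.25 ± 0.40 (adjusted p = 0.00630) and was named after its values were seen.

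KO2 replicate 2 was the highest of the 4 KO2 libraries for 21 of the 38 members and the lowest for 6, and had the lowest epithelial sum of all, 1411 CPM. In KO1, replicate 1, the deepest library, was the lowest for 24 members and replicate 3 the highest for 23. These counts were not made over all genes tested, so they are not shown to be particular to the members. The part of depth and of epithelial markers in these differences was not tested.

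MaTAR25 binding was read from peak lists of ChIRP-seq, in which biotinylated oligos draw down an RNA with the chromatin it touches. Each list pools its replicates, so no test was made. A peak was counted for the gene whose promoter was nearest to it, at any distance, so it need not lie at that promoter. In the list of wild type 4T1 cells with all oligos, 15 of the 38 members tested (39.5%) had a peak nearest their promoter, where 59.6% of all genes tested did. The share was 42.1% with the odd oligos (52.4% of all genes) and 39.5% in primary mammary tumor cells of FVB mice called NDL (58.0%), whose genotype is MMTV-PyMT in the labels and MMTV-Neu-NDL in the study's text. That text also calls the cells of this list cNeu, in its methods the name of a cell line. Whether they were primary cells or a line is therefore not settled here. The list of the even oligos has 0 peaks on chromosome 3, where Gclm, Gstm1, Gstm2 and Gstm5 lie, and 8877 on chromosome 2, against 4454 with the odd oligos. Its shares, 34.2% of members and 52.9% of all genes, therefore count every gene of chromosome 3 as without a peak and are not comparable with those of the other lists. Members are shorter genes, with a median span of 12.1 kb against 18.7 kb over all genes tested, and the part of length was not tested. At a score of at least 100, 4 members remained in the list with all oligos (10.5%, against 26.1% of all genes): Nqo1, Prdx4, Sod1 and Srxn1. Their peaks of that score lay at -4303 bases from the start for Nqo1 and 4355 for Srxn1. For Prdx4 the distance was -56421 bases, and for Sod1 it was -82553 and -38356 bases. Nfe2l2 held a peak in an exon with a score of 159.7, and the nearest peak of Mt2 lay at -3409 bases from its start with a score of 95.4. Of the 3 members that fell, Mt2 alone had a peak nearest its promoter in this list, and 9 of the 18 that rose had a peak nearest their promoter.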

How the data were processed

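RNA-seq libraries of 4T1 cells (2 control, 3 KO1 and 4 KO2) were analysed. STAR alignments to GRCm38 were counted per gene by the authors with HTSeq on GENCODE annotation, and the deposited values are raw counts for each library. The strand setting was not given in the sources used here. Entries for reads assigned to no gene made up 33.9% to 37.0% of a library and were left out. Among them, the entry for alignments that were not unique made up 24.1% to 27.5% of a library. One KO2 file lists each gene 3 times with the same value, and each was used once. Groups came from the sample labels, and 0 columns of per-sample values were left unused.

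Genes were kept with edgeR's expression filter (15023 of 45318), normalized by TMM and tested with the edgeR quasi-likelihood F test (edgeR 4.0.16, limma 3.58.1, R 4.3.3), two-sided, with Benjamini-Hochberg adjusted p-values over all 15023 genes and a threshold of 0.1. KO against control was fitted on 2 groups, and the clones on 3 groups that share the 2 controls. The biological coefficient of variation was 42.0% and 32.5%. The test was tried first on simulated data. DESeq2 1.42.0, other size factors, other filters and thresholds, a replicate block and leaving out each library were the alternatives. CPM per kilobase used the merged exon bases of all GENCODE transcripts of a gene. These exons and the overlaps with antisense genes came from a later GENCODE release than the counts. Promoters came from RefSeq (GRCm38.p6), and tables were made in Python 3.11.15 with pandas 2.3.3.

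For ChIRP-seq the authors aligned reads with Bowtie2, called peaks with HOMER against a Ppib control on combined replicates, and deposited peak lists with a score for each peak, whose scaling was not stated.

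The members and gene lists were chosen with earlier results of these data known. Members described in full were Nfe2l2, Keap1, up to 14 called members with a log2 fold change of at least 1 in either direction, and up to 8 members called between the clones. For each other list the 2 called genes with the largest change were named, and Ccs, Tfrc, Pgls, Cdh1 and Krt8 were named after their values were seen. Genes with no count in the controls were set against a floor of 3 counts over both controls.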

Additional observations from a re-analysis of the deposited data

Results flagged for a closer look

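Single libraries stood far from the rest of their group for 9 members, by the gap of the highest or lowest library relative to the range of the group (chance gives about 1 in 20 groups). Among the 4 KO2 libraries, 3 of 38 members were picked out, each by KO2 replicate 2: Prdx1 at 719 CPM, Mt1 at 101 CPM and Mt2 at 53.1 CPM. Among all 7 KO libraries, 7 of 38 members were picked out, 5 of them by the same library. KO2 replicate 2 was the highest for Gstp1 (129 CPM), Pgd (419.6 CPM), Hmox1 (61.5 CPM), Fth1 (3805 CPM) and Mt2 (53.1 CPM). KO2 replicate 4 was the highest for Tkt (716 CPM), and KO1 replicate 1 was the lowest for Abcc1 (156 CPM). How often these libraries stood apart over all genes tested was not counted.

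The clones differed from each other by the test of the difference itself for 7 members, with the log2 fold change of KO1 against KO2 at -0.71 for Txnrd1, -0.59 for Prdx1, -0.57 for Prdx2, 0.48 for Prdx3, -0.79 for Prdx5, 0.97 for Taldo1 and 0.68 for Blvrb. In each of the 7 the libraries of 1 clone all lay above those of the other.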

How the results depend on the processing

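The number of members called in KO against control was 12 with the replicate number as a block, and 1 to 23 when each library was left out in turn. It was 5 to 26 for KO1 against control and 11 to 27 for KO2 against control when libraries were left out. Between the clones it was 3 at a threshold of 0.05, 4 with the replicate block, 4 with only the groups compared in the fit, and 2 to 10 when libraries were left out. Members with a ChIRP peak nearest their promoter fell from 15 to 4 at a score of at least 100. DESeq2 called 26, 22, 24 and 7 members in the 4 comparisons. The number of all genes called under these alternatives was not counted. For single genes, 738 values under alternatives kept their direction and their side of the threshold, 121 lost the call and 18 gained it. Only Cat changed sign, and it turned from -0.04 to 0.047 without control replicate 2, to 0.0034 without KO2 replicate 1 and to 0.00081 without KO2 replicate 2, within -0.10 to 0.047 over the libraries left out, and was called in none. Same-numbered libraries did not deviate together (r of -0.20 to 0.056 over 7 pairs, against -0.15 to 0.16 over 19 other pairs). This cannot exclude a pairing by number, since with 2 controls the deviations of 1 from their mean mirror those of the other. Leaving out a control leaves 1, which is then assumed to vary like the KO libraries, and most calls need both controls. The lower bounds of Gsta1 and Gstk1 without each KO library, chosen after seeing the data, ran from 15.1-fold to 32.4-fold and from 25.3-fold to 35.4-fold.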
